A study of Mus musculus with 26 samples.

Results

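Haematopoietic stem cells (HSCs) sorted from the bone marrow of mice labelled with Ezh2 loss were compared with HSCs of control mice. The comparison rests on 12 of the 26 RNA libraries of the series: 7 whose genotype label reads Ezh2 loss and 5 labelled CTR with the condition WT, here called control. The other libraries carry JAK2V617F, the activating mutation of the kinase JAK2 found in myeloproliferative neoplasms, alone (7) or together with Ezh2 loss (7, here called double mutant), and are used in 1 comparison near the end. All were made by Smart-Seq2, which copies whole transcripts from small cell samples. The sources used here do not give the allele of Ezh2, any Cre driver, strain, age, sex, cells per library or number of animals. The replicates may therefore be technical in part, and a p-value speaks of the spread among these libraries alone.

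The titles of the libraries are written in 2 styles, with the number before or after the group code. Number-first titles belong to 4 of 5 control and 2 of 7 Ezh2 loss libraries. The style is called that and nothing more, since no label says what it stands for. It was a term in the fit, and values are given by style. Libraries are named by group and replicate: control 1 to 4 and Ezh2 loss 3 and 4 are number-first, and control 5 and Ezh2 loss 1, 2, 5, 6 and 7 are number-last.

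Ezh2 is the catalytic subunit of Polycomb repressive complex 2 (PRC2), which places methyl groups on lysine 27 of histone H3 and so keeps developmental genes silent. Its core partners are Eed and Suz12, its close relative Ezh1 can replace part of its activity, and Polycomb repressive complex 1 (PRC1) binds the mark it makes. In blood, Ezh2 is known both as a regulator of stem cell self-renewal and as a tumour suppressor in myeloid disease, where its loss occurs together with JAK2V617F. HSCs renew themselves and give rise to every blood lineage, so RNA of neutrophils, red cells or platelets in an HSC library is measured here beside the stem cell genes.

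The values are RPKM, in which the reads of a gene are divided by its length in kilobases and by the read total of the library. A difference is Ezh2 loss minus control on the log2(RPKM + 1) scale with title style in the fit, which understates the change of genes near 0. Of 23416 genes, 10886 reached 1 RPKM in at least 5 of the 12 libraries and were tested. Estimated read totals, in units of 1e6 reads, were 12.2 to 20.3 in control and 7.8 to 24.9 in Ezh2 loss libraries, so that 1 read in a 2-kb gene was worth 0.0201 to 0.0639 RPKM. At least 1 library was listed at 0 for 3387 of the tested genes (31.1%). The first principal component (21.4% of the variance) ran from -52.1 to -31.9 over the number-first and from 18.1 to 72.5 over the number-last libraries, whichever their genotype. With genotype in the fit, 544 genes (5%) differed by title style: number-first libraries were higher in 391 (3.59%) and lower in 153 (1.41%).

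Stem cell markers were found in every library. The check left out Cd34, Flt3 and Cd48, which are meant to be low in HSCs, so it does not show how pure the cells were. All 8 stem cell markers checked were above 0 in all 12 libraries: the protein C receptor gene Procr, the transcription factors Hlf and Mecom, Slamf1, Fgd5, Kit, Ly6a (Sca-1) and Esam. Their summed level was 498 to 1210 RPKM in control and 634 to 1350 in Ezh2 loss libraries. Neutrophil markers differed far more, with a summed level of 43.5 to 388 RPKM in control (median 71.7) and 404 to 38200 in Ezh2 loss libraries (median 14700). Erythroid markers summed to 5.75 to 22.3 RPKM in control and 29.7 to 5910 in Ezh2 loss libraries, and monocyte markers to 9.79 to 82.3 and 25.2 to 483. Of the 5 B cell markers none was above 0 in control libraries, and their sum reached 21.2 in Ezh2 loss 2. The summed level of 4 Y-linked genes was over 5 RPKM in 1 of 5 control and 2 of 7 Ezh2 loss libraries. In bulk libraries more cells of a type and more RNA per cell cannot be told apart, and the part of other cell types in the results below was not tested beyond the values given.

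**Figure D1:**
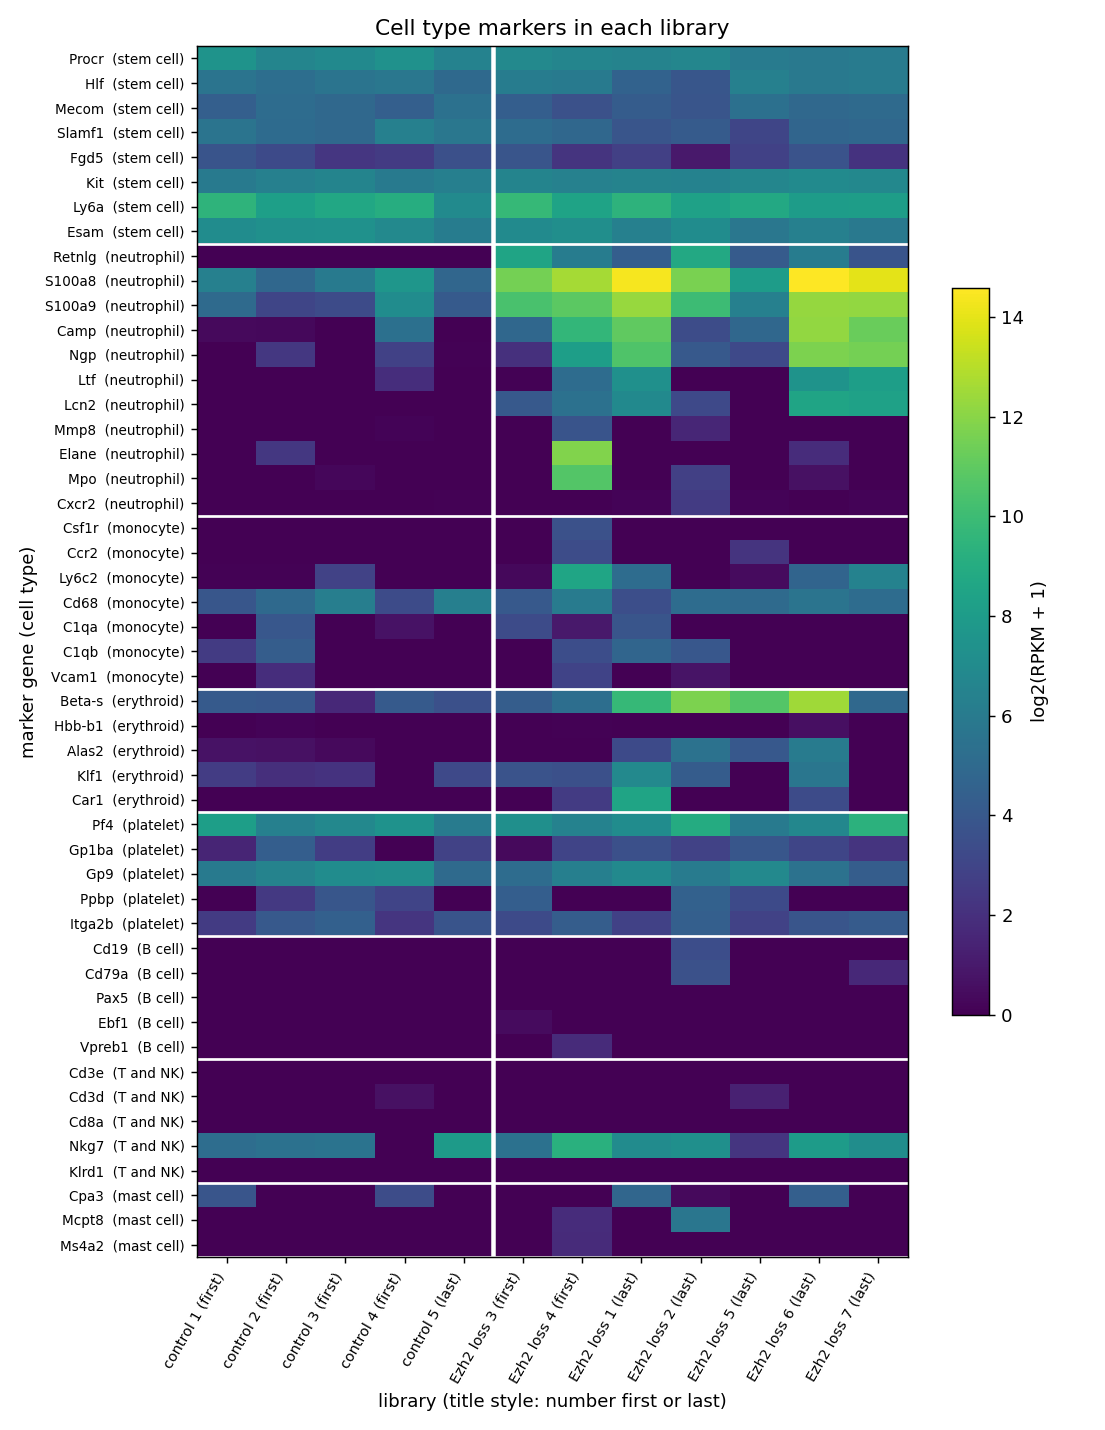
Level of each cell type marker (rows) in each of the 12 libraries (columns), as log2(RPKM + 1) from dark (0) to bright, with a vertical line between control and Ezh2 loss and the title style in brackets. Stem cell markers are present throughout, while S100a8, S100a9 and other neutrophil rows are bright in Ezh2 loss libraries and Beta-s is bright in Ezh2 loss 1, 2, 5 and 6.

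Ezh2 RNA itself (chr6:47530139-47595341, GRCm38, minus strand, protein-coding) did not separate the groups. It was at 18.1, 29.6, 29.5, 8.11 and 33.2 RPKM in control libraries 1 to 5. In Ezh2 loss libraries it ran from 5.15 over a median of 15.4 to 31.4 RPKM. The ranges overlapped almost fully, with 1 control library below 6 of the 7 Ezh2 loss libraries. The means were 23.7 ± 10.4 (SD, n = 5) and 17.6 ± 9.0 (SD, n = 7), a log2 difference of -0.41 (SE 0.54, limma adjusted p = 0.966). An exact two-sided permutation test of the means gave p = 0.375 over all splits, and p = 0.333 over the splits within title style, where the smallest possible value is 0.0111. By style the difference was 0.08 in number-first and -1.18 in number-last libraries, and these did not differ beyond their error (1.26, SE 1.08, limma adjusted p = 0.948). A gene-level value sums all exons, so it still counts a transcript that lacks only some of them. It therefore neither shows nor contradicts the loss named in the label.

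The partners of Ezh2 in PRC2 likewise had overlapping levels in both groups. None of 11 PRC2 genes passed the test, 4 were higher and 7 lower, and their median difference was -0.05 beside -0.03 over all genes tested. Eed, the subunit that reads the mark, was at 49.9 to 95.0 RPKM in control and 21.8 to 111 in Ezh2 loss libraries. Suz12, which holds the core together, was at 4.84 to 23.3 and 5.28 to 26.7 RPKM. Ezh1 was at 0.646 to 24.1 RPKM in control and 0.191 to 11.3 in Ezh2 loss, with a difference of 0.33 that became -0.53 without the style term. Rbbp4, a histone-binding subunit, had the smallest p of the set (-0.48, SE 0.30, limma adjusted p = 0.879). The accessory subunits Mtf2 (-0.43), Aebp2 (-0.43) and Jarid2 (0.43) had errors as large as or near their differences.

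The wider Polycomb machinery and those of its classic targets that were tested showed no common direction with title style in the fit. Of 17 PRC1 genes tested 0 passed by limma and 0 had an unadjusted p under 0.05, with 9 higher and 8 lower. Among 13 genes that oppose Polycomb 0 passed by limma, and Smarcb1, a subunit of the SWI/SNF remodeller, had the smallest p (-0.52, SE 0.24, limma adjusted p = 0.861). Only 16 of 54 classic Polycomb-repressed genes reached the filter, 8 of them higher and 8 lower, with a median of -0.02. Each of the 16 reached 1 RPKM in at least 1 control library, and the members under the filter were not tested. Without the style term the median was -0.43, beside -0.12 over all genes tested. The one with an unadjusted p under 0.05 was Hoxa9, a homeobox gene that HSCs use, at 22.3 to 59.2 RPKM in control and 13.7 to 38.0 in Ezh2 loss (-0.81, SE 0.35, limma adjusted p = 0.861). Cdkn2a, the cell cycle inhibitor locus best known as a PRC2 target, was listed at 0 in all 12 libraries. Meg3, an imprinted non-coding RNA of HSCs, was at 0.024 to 1.74 RPKM in control and at 0.309 to 10.5 in Ezh2 loss (1.75, SE 0.65, limma adjusted p = 0.836). In the fetal and imprinted list 6 of 8 tested genes were higher (75%, beside 47.1% of all genes tested).

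Across all genes 2 of 10886 (0.0184%) passed by limma at an adjusted p under 0.05, 1 higher (0.00919%) and 1 lower (0.00919%) in Ezh2 loss. At an unadjusted p under 0.05 there were 615 (5.65%), 269 higher (2.47%) and 346 lower (3.18%), a share near the 5% that the threshold itself allows. The gene that rose was Retnlg, the resistin-like gamma gene of neutrophils, and the gene that fell was Gstm2, a glutathione S-transferase.

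Retnlg (chr16:48872621-48874496, GRCm38, plus strand, protein-coding) was listed at 0 in all 5 control libraries and was present in all 7 Ezh2 loss libraries. Those ran from 12.6 over a median of 68.0 to 449 RPKM, so the groups were fully apart, and the gene passed the RPKM filter through the Ezh2 loss libraries alone. The log2 difference was 6.60 (SE 0.89, limma adjusted p = 0.0148). It was 7.31 in number-first and 5.46 in number-last libraries, the same direction in both styles. Over the alternative settings the adjusted p ran from 0.00181 to 0.571. It was over the threshold without control 3 (0.0522), without Ezh2 loss 3 (0.107) and without Ezh2 loss 4 (0.0877), in number-last libraries alone (0.571) and with a neutrophil covariate (0.191), where the difference was 8.03. It was also over the threshold with a pseudocount of 5 (0.101), no low-value filter (0.112), all 26 libraries in the fit (0.22) and eBayes without trend and robust (0.0822). The neutrophil covariate is built in part from Retnlg itself, so the fit with it is no separate check of this gene.

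The promoter of Retnlg is shown because this gene carried the largest passing difference. It is the 250 bases before the start of transcription in RefSeq, at chr16:48872358-48872607 (GRCm38.p6, plus strand). Capitals mark a match to TTGCNNAA, a core of the sites bound by C/EBP factors of myeloid cells, searched on both strands and found here on the minus strand.
Retnlg: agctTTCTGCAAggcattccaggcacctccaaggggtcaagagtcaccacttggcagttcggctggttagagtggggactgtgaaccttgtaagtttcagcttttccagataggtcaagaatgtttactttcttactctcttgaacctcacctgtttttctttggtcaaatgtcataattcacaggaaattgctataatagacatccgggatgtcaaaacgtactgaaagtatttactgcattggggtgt
That pattern is in 10.8% of 32851 windows of 300 bases around RefSeq starts, so a single match is common, and no binding was measured here. Of 6 neutrophil genes looked up 4 held a match: Retnlg, S100a9, Lcn2 and Ngp did, and S100a8 and Camp did not.

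Gstm2 (chr3:107981702-107986453, GRCm38, minus strand, protein-coding) was at 65.5, 23.7, 18.1, 56.5 and 90.2 RPKM in control libraries 1 to 5. In Ezh2 loss libraries it ran from 0 over a median of 10.6 to 43.3 RPKM. The groups overlapped as a whole but were apart within each style. The number-first Ezh2 loss libraries were at 0 and 0.0383 against 18.1 to 65.5 in number-first control, and the number-last ones at 7.86 to 43.3 against 90.2 in the only number-last control. The log2 difference was -4.10 (SE 0.63, limma adjusted p = 0.0381), and Gstm2 also differed by style itself (-3.10 in number-first, limma adjusted p = 0.00595). Without the style term it was -2.51 (limma adjusted p = 0.596), and it stayed under the threshold in the leave-one-out fits only without control 5, Ezh2 loss 1 or Ezh2 loss 5. Gstm2 has near-identical neighbours, so reads could be split between copies and its level is uncertain. The neighbours Gstm1 (445 ± 225 RPKM in 5 control and 413 ± 97.9 in 7 Ezh2 loss libraries) and Gstm5 (120 ± 25.4 and 149 ± 52.8), chosen after their values were seen, had differences of 0.22 and 0.05.

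**Figure D2:**
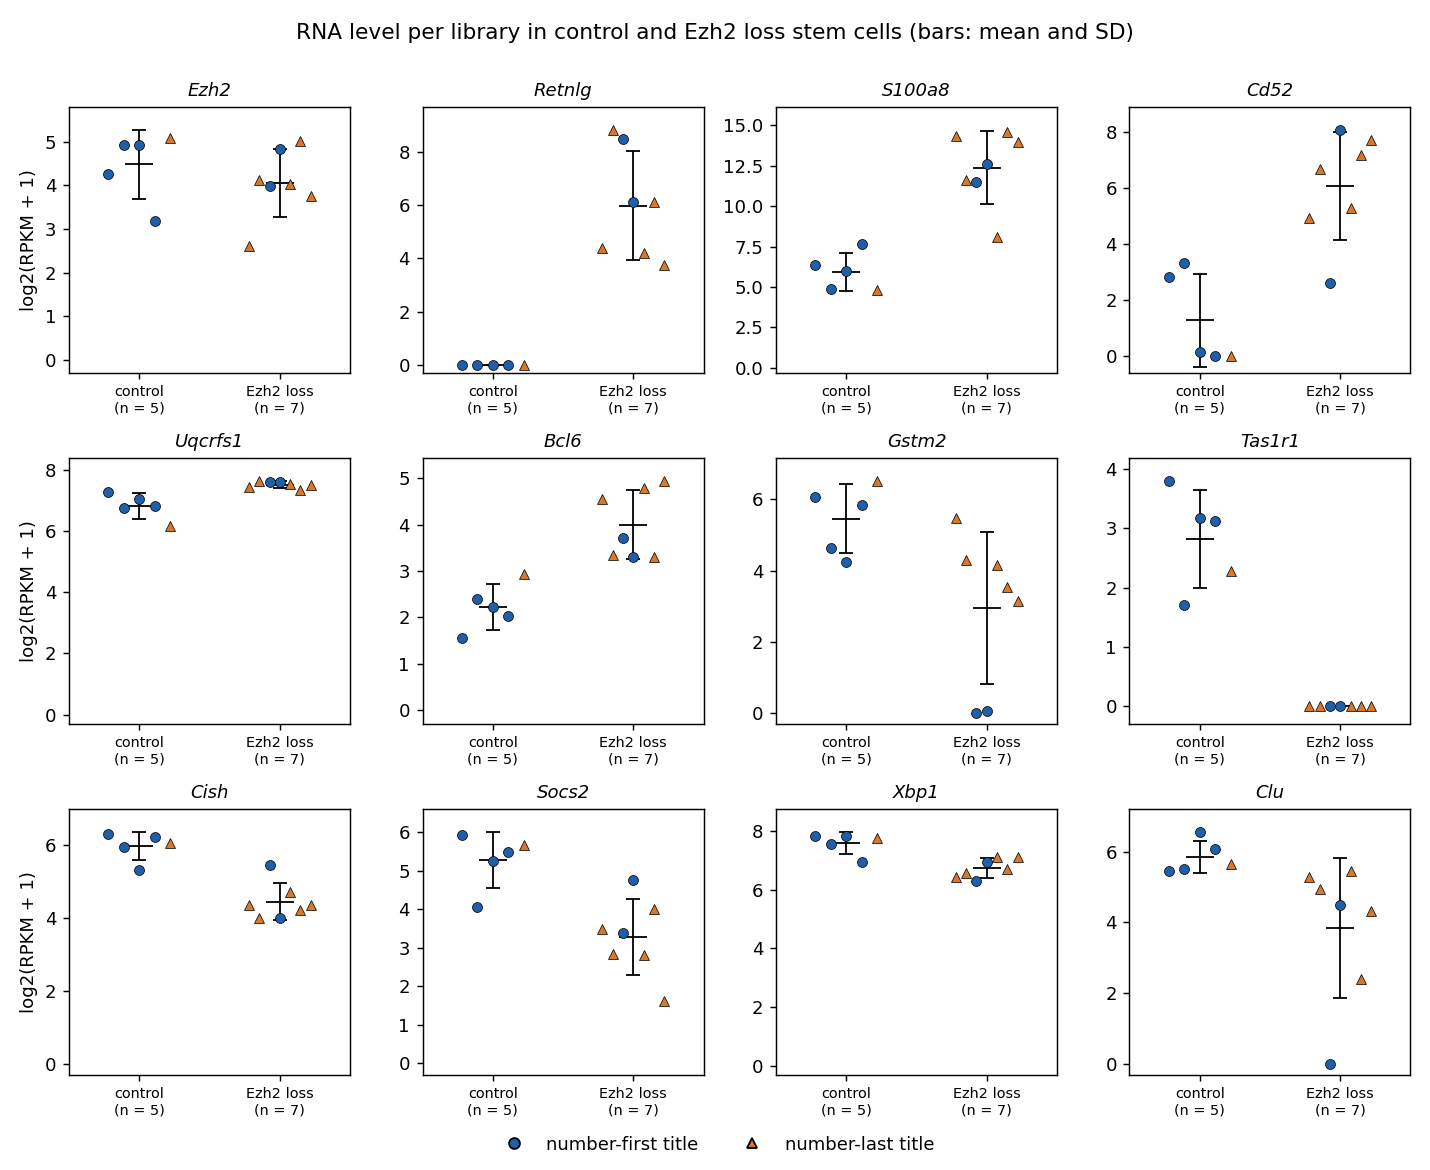
Level of 12 genes in each library as log2(RPKM + 1), with circles for number-first and triangles for number-last titles and black bars for the mean and SD of 5 control and 7 Ezh2 loss libraries. Retnlg, S100a8, Uqcrfs1 and Bcl6 are higher in every Ezh2 loss library than in any control, Tas1r1 and Clu are lower in every one, and Ezh2 overlaps.

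Other neutrophil genes were higher in Ezh2 loss libraries and varied strongly between them. S100a8 and S100a9 encode the calprotectin pair of granulocytes. S100a8 was at 80.6, 27.9, 62.5, 203 and 26.6 RPKM in control 1 to 5 and ran from 271 over a median of 6280 to 24500 in Ezh2 loss, with no overlap. Its difference of 6.58 (SE 1.30) did not pass (limma adjusted p = 0.43), but it did in number-first libraries alone (5.85, limma adjusted p = 0.00515) and without Ezh2 loss 5 (6.98, limma adjusted p = 0.00995), the library with the lowest value. S100a9 was at 7.29 to 137 RPKM in control and 79.9 to 5170 in Ezh2 loss, where only Ezh2 loss 5 lay within the control range (6.18, SE 1.31, limma adjusted p = 0.561). Lcn2, a granule protein that binds iron carriers, was listed at 0 in all control libraries and in Ezh2 loss 5, and was at 8.43 to 362 RPKM in the other 6.

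The make-up of the neutrophil RNA differed from library to library. Camp and Ngp, made when secondary granules form, were highest in Ezh2 loss 1 (2060 and 1490 RPKM), Ezh2 loss 6 (4800 and 3330) and Ezh2 loss 7 (2440 and 2980). Ezh2 loss 2 held 9.63 and 16 RPKM of them, and Ezh2 loss 3 held 27.9 and 3.08. The highest Retnlg values, 449 and 360 RPKM, belonged to those last 2 libraries. Ezh2 loss 4 alone held the primary granule genes of promyelocytes at high level, with Elane at 3640 RPKM and Mpo at 1620, against at most 4.21 and 0.194 in control and at most 2.57 and 5.75 in other Ezh2 loss libraries. It also held Ctsg at 455 RPKM, a gene named after its values were seen, which was at 0 in the other 11 libraries. Prtn3, made by early progenitors too, was abundant throughout, at 219 to 441 RPKM in control and 292 to 1180 in Ezh2 loss (0.69, SE 0.32, limma adjusted p = 0.861). Lyz2, the lysozyme of phagocytes, was at 707 to 1020 and 742 to 2720 RPKM (0.79, SE 0.32, limma adjusted p = 0.861).

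Of 27 neutrophil granule and alarmin genes, 13 were tested, and 3 of these had no control library at 1 RPKM, so that they entered the test through Ezh2 loss alone. All 13 had a positive difference, 10 of them at an unadjusted p under 0.05 and 1, Retnlg, after adjustment, but because of the filter these counts describe the tested members and support nothing further. With the mean level of neutrophil genes as a covariate, their median went from 3.08 to -0.31, as that covariate is built from some of them. Of 9 monocyte and macrophage genes 0 passed by limma. Ctss, a lysosomal protease, was at 135 RPKM in Ezh2 loss 4 and at 14.3 to 50.2 in the other Ezh2 loss libraries, beside 0 to 31.5 in control (2.31, SE 0.70, limma adjusted p = 0.757). Ly6c2, a surface protein of monocytes, was at 378 RPKM in Ezh2 loss 4 and at 0 to 88.3 in the others, beside 0 to 6.35 in control (3.56, SE 1.54, limma adjusted p = 0.861), and its difference was -2.03 with the neutrophil covariate. The median of the monocyte list was 0.88, and 0.05 without Ezh2 loss 4.

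Erythroid transcripts were carried by 4 of the 7 Ezh2 loss libraries, all of them number-last. Beta-s, the adult beta-globin transcript, was at 16.5, 14.9, 2.16, 16.8 and 10.8 RPKM in control 1 to 5. It was at 877, 3390, 1610 and 5790 RPKM in Ezh2 loss 1, 2, 5 and 6, and at 18.5, 37.5 and 29.7 in Ezh2 loss 3, 4 and 7. Every Ezh2 loss library thus lay above every control, although 3 of them only slightly. The difference was 3.24 (SE 1.55, limma adjusted p = 0.861), made of 1.29 in number-first and 6.36 in number-last libraries. Car1 was at 367 RPKM in Ezh2 loss 1. The alpha-globin gene Hba-a1 was listed at 0 in all 12 libraries, also in Ezh2 loss 6, the library with the most Beta-s, so a 0 in this table need not mean absence. Of 14 tested erythroid genes 11 were higher (78.6%, beside 47.1% of all genes tested). Among the 14, 0 passed by limma or had an unadjusted p under 0.05. Their median was 1.02, beside 0.09 in number-first libraries alone.

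Platelet and megakaryocyte genes, many of which HSCs themselves express, had 11 of 19 tested members higher and a median of 0.09. That is 57.9% higher, beside 47.1% of all genes tested. Clu, which encodes the secreted chaperone clusterin, was at 43.0, 44.5, 92.4, 66.9 and 49.0 RPKM in control 1 to 5. In Ezh2 loss it ran from 0 over a median of 21.3 to 42.8 RPKM. Every Ezh2 loss library lay below every control, the closest pair being 42.8 and 43.0 (-2.70, SE 0.82, limma adjusted p = 0.757). Tubb1, the beta-tubulin of platelets, was listed at 0 in 4 of 5 control libraries and was at 0 to 10.6 RPKM in Ezh2 loss (1.84, SE 0.74, limma adjusted p = 0.861). Vwf was at a difference of -1.10 (SE 0.55, limma adjusted p = 0.861).

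Genes of leukocyte surfaces had some of the smallest p-values without passing. Cd52, a small surface glycoprotein of lymphocytes and myeloid cells, was at 6.06, 8.92, 0.0981, 0 and 0 RPKM in control 1 to 5 and ran from 5.02 over a median of 99.5 to 268 in Ezh2 loss. Only Ezh2 loss 3 (5.02) fell inside the control range, and without it Cd52 passed (6.42, limma adjusted p = 0.0242), against 4.76 (SE 1.04, limma adjusted p = 0.369) with it. Over all alternatives its adjusted p ran from 0.0242 to 0.9997. Cd53, a tetraspanin of leukocytes, was at 0 to 12.7 RPKM in control and 6.65 to 49.1 in Ezh2 loss (3.03, SE 0.78, limma adjusted p = 0.651). Lilrb4, an inhibitory receptor of myeloid cells and mast cells, was listed at 0 in 4 control libraries and at 0.405 in control 5, and ran from 1.08 over a median of 9.20 to 42.1 RPKM in Ezh2 loss (3.54, SE 0.76, limma adjusted p = 0.336). Lilrb4 thus passed the RPKM filter through the Ezh2 loss libraries alone. The remaining tested genes of the lymphoid priming list, Flt3 (0.50, SE 0.76) and Cd27 (-0.21, SE 0.23) among them, had differences within their errors. Cd52 and Lilrb4 were both highest in Ezh2 loss 4, the library with Elane, Mpo and the most monocyte RNA.

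In 20 genes (0.184%) every Ezh2 loss library lay above every control, and in 23 (0.211%) every one lay below. Within each style separately, 117 genes (1.07%) were above and 148 (1.36%) below. How many genes would lie apart in this way without a difference in genotype was not tested. Lack of overlap, over all libraries or within each style, therefore only describes the values. The steadiest of the higher genes was Uqcrfs1, the Rieske iron-sulphur subunit of respiratory complex III. It was at 154, 108, 131, 112 and 70.1 RPKM in control 1 to 5 and at 160 to 196 with a median of 186 in Ezh2 loss. The groups did not overlap, and the Ezh2 loss libraries varied little, with 182 ± 13.6 RPKM (SD, n = 7) against 115 ± 31.0 in control (SD, n = 5). The difference was 0.90 (SE 0.20, limma adjusted p = 0.43), 0.62 in number-first and 1.33 in number-last libraries. Gid8, a subunit of the CTLH ubiquitin ligase, was at 0.932 to 8.14 RPKM in control and 8.15 to 24.2 in Ezh2 loss, just apart (2.26, SE 0.54, limma adjusted p = 0.531). Oip5, a protein that loads the centromeric histone, was at 2.43 to 21.1 and 5.04 to 65.1 RPKM (2.60, SE 0.67, limma adjusted p = 0.651). Other genes that did not overlap, chosen after their values were seen, were Kin (21.9 ± 9.65 RPKM in 5 control and 59.7 ± 23.8 in 7 Ezh2 loss libraries) and the telomere-binding gene Terf1 (26.1 ± 4.91 and 50.9 ± 11.8).

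Among the lower genes whose groups did not overlap, Tas1r1 had the smallest p. This taste receptor subunit was at 13, 2.26, 7.98, 7.69 and 3.86 RPKM in control 1 to 5 and listed at 0 in all 7 Ezh2 loss libraries. The gene thus passed the RPKM filter through the control libraries alone. The log2 difference was -2.69 (SE 0.52, limma adjusted p = 0.276), and without the style term it passed (-2.82, limma adjusted p = 0.045), while Gstm2 did not. That fit called 2 genes (0.0184%), Retnlg and Tas1r1, and had 798 at an unadjusted p under 0.05 (7.33%). Kdm1b, a demethylase of histone H3 lysine 4, was at 6.93, 2.46, 3.06, 5.52 and 8.28 RPKM in control and ran from 0 over a median of 0.386 to 1.97 in Ezh2 loss, again with no overlap (-2.31, SE 0.53, limma adjusted p = 0.43). Noxa1, an activator of NADPH oxidase, was at 4.85 to 22.5 RPKM in control and listed at 0 in 6 Ezh2 loss libraries, with 5.55 in Ezh2 loss 4 (-2.51, SE 0.65, limma adjusted p = 0.651). Eif4ebp2, a repressor of cap-dependent translation, was at 2.86 to 11.2 RPKM in control and under 0.1 in 6 Ezh2 loss libraries, with 4.60 in Ezh2 loss 3 (-2.42, SE 0.63, limma adjusted p = 0.651). Akr1c12, an aldo-keto reductase with near-identical relatives, was at 2.81 to 17.4 RPKM in control and listed at 0 in 5 Ezh2 loss libraries, with 11.8 in Ezh2 loss 6 and 1.12 in Ezh2 loss 7 (-3.22, SE 0.79, limma adjusted p = 0.561).

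Other lower genes were more abundant or overlapped between the groups. Xbp1, the transcription factor of the unfolded protein response, was at 226, 185, 225, 123 and 215 RPKM in control 1 to 5. In Ezh2 loss it ran from 77.3 over a median of 103 to 138 RPKM. All Ezh2 loss libraries were below 4 of the 5 controls, and control 4 was within their range (-0.94, SE 0.25, limma adjusted p = 0.651). The difference was alike in number-first (-0.91) and number-last (-0.97) libraries. Mif, a cytokine gene, was at 601 ± 76.5 RPKM in 5 control and 400 ± 85.6 in 7 Ezh2 loss libraries, and Skp1a, a core part of SCF ubiquitin ligases, at 680 ± 78.5 and 460 ± 84.3. Both were named after their values were seen, did not overlap between groups and did not pass (limma adjusted p = 0.846 and 0.842). Cox4i2, an alternative subunit of cytochrome oxidase, was at 12.1 to 31.5 RPKM in control and 0 to 27.5 in Ezh2 loss (-2.99, SE 0.58, limma adjusted p = 0.276). Rnf25, a ubiquitin ligase, was at 17.5 to 78.9 and 0 to 29.2 RPKM (-2.58, SE 0.53, limma adjusted p = 0.336). In both genes the number-first Ezh2 loss libraries were lowest, at 0 and 0 for Cox4i2 and at 0 and 5.82 for Rnf25. Both also differed by style itself (-2.77 and -2.62 in number-first, limma adjusted p = 0.008 and 0.00571), and for Cox4i2 the number-first libraries alone passed (-4.09, limma adjusted p = 0.0366).

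JAK-STAT signalling carries the signals of thrombopoietin and other cytokines to the nucleus, where STAT factors turn on genes that include the brakes of the pathway. Of 21 target genes 15 were lower and 6 higher (28.6%, beside 47.1% of all genes tested), with a median of -0.27, and 0 passed by limma. The list as a whole was not tested. The feedback inhibitor Cish had the smallest p. It was at 78.2, 61.4, 39.1, 73.7 and 65.6 RPKM in control 1 to 5 and ran from 15.1 over a median of 19.5 to 43.3 in Ezh2 loss. Of the 7 Ezh2 loss libraries 6 lay below every control, and Ezh2 loss 3 (43.3) was inside the control range (-1.41, SE 0.36, limma adjusted p = 0.651). The difference was -1.21 in number-first and -1.72 in number-last libraries. Socs2, another feedback inhibitor, was at 59.5, 15.7, 36.8, 43.7 and 50 RPKM in control and ran from 2.08 over a median of 9.44 to 26.2 in Ezh2 loss (-1.72, SE 0.57, limma adjusted p = 0.81). Dusp6, a phosphatase of the ERK kinases, was at 30.8 to 81.8 RPKM in control and 3.64 to 50 in Ezh2 loss (-1.67, SE 0.56, limma adjusted p = 0.821). The median of the list was -0.73 without the style term, and 4 of its genes differed by style.

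Bcl6, a transcriptional repressor that STAT factors also bind, went the other way. It was at 1.95, 4.24, 3.67, 3.07 and 6.62 RPKM in control 1 to 5 and ran from 8.82 over a median of 12.1 to 29.8 in Ezh2 loss. The groups did not overlap, and the difference was 1.38 (SE 0.51, limma adjusted p = 0.829), 1.45 in number-first and 1.26 in number-last libraries. Lrg1, a STAT3 target that neutrophils also make, was listed at 0 in all 5 control libraries and was at 0 to 44.2 RPKM in Ezh2 loss (2.60, SE 1.02, limma adjusted p = 0.851). Lrg1 thus passed the RPKM filter through the Ezh2 loss libraries alone. It was 0 in Ezh2 loss 3 and 5. No gene among 11 JAK kinases and STAT factors had an unadjusted p under 0.05 or passed by limma, and Jak2 itself was at 16.2 ± 4.71 RPKM in 5 control and 17.8 ± 9.37 in 7 Ezh2 loss libraries. Among 20 cytokine receptors 0 passed by limma. Ifngr2, a chain of the interferon gamma receptor, was at 9.54 to 43.3 RPKM in control and 0.129 to 20.4 in Ezh2 loss (-2.48, SE 0.76, limma adjusted p = 0.757).

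Sequence at Cish and Bcl6 is shown because these STAT targets lay in opposite directions and both carry the palindrome TTCNNNGAA, the consensus of STAT5 sites, searched on both strands and in capitals. For Cish it is a stretch of 20 bases at chr9:107296659-107296678 (GRCm38.p6, plus strand, within an annotated exon of a Cish transcript), and for Bcl6 the 250 bases before the start with more matches of its 2 in RefSeq, at chr16:23981284-23981533 (GRCm38.p6, minus strand), both from RefSeq.
Cish: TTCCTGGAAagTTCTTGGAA
Bcl6: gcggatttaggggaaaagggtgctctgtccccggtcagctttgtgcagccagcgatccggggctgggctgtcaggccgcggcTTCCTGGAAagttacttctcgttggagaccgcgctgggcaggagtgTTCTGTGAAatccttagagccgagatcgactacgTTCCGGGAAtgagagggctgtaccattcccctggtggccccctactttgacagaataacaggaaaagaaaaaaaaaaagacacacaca
There were 2 matches in the Cish stretch and 3 at Bcl6, while 8.3% of 32851 windows of 300 bases around RefSeq starts held at least 1. The other Bcl6 window held 1 match. Dusp6 was looked up too and its window held 0. No window was found for Socs2, which was also looked up.

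Genes of stem cell identity showed no common shift. Of 34 tested, 17 were higher and 17 lower, the median was 0.0075 and 0 passed by limma. Cd34, low on the most primitive mouse HSCs, was at 33.3 to 108 RPKM in control and 14.6 to 71.0 in Ezh2 loss, overlapping as a whole but below control within each style (-1.12, SE 0.33, limma adjusted p = 0.757). Tcf15, a transcription factor of quiescent HSCs, was at 82.9, 85.7, 76.1, 73.6 and 17.5 RPKM in control 1 to 5, the last of them the number-last library. In Ezh2 loss it was at 31.8 and 27.3 RPKM in the number-first libraries and at 0 to 18.1 in the number-last ones (-1.90, SE 0.81, limma adjusted p = 0.861, style 2.95). The difference was -3.42 without the style term and 1.29 with the neutrophil covariate. Mycn was at 67.4 to 189 RPKM in control and 26.4 to 86.9 in Ezh2 loss (-0.73, SE 0.32, limma adjusted p = 0.861), and Slamf1, the HSC surface receptor CD150, at 29.4 to 81.7 and 7.32 to 34.3 (-0.94, SE 0.44, limma adjusted p = 0.861). Procr was at 88.5 to 176 and 58.9 to 114 RPKM (-0.30, SE 0.25, limma adjusted p = 0.923), while Kit was at a difference of 0.30 (SE 0.22).

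Of 38 interferon-stimulated genes 29 were higher (76.3%, beside 47.1% of all genes tested), with a median of 0.50, which was 0.53 in number-first and 0.44 in number-last libraries. None passed by limma (0 genes), and 4, all higher, had an unadjusted p under 0.05, beside 2.47% of all genes tested. The list as a whole was not tested. Ifi27l2a was listed at 0 in 4 controls and at 27.8 RPKM in control 3, and ran from 0 over a median of 35.2 to 242 in Ezh2 loss (5.03, SE 1.44, limma adjusted p = 0.757). Usp18, which removes the ubiquitin-like ISG15, was at 22.6 to 48.1 and 33.4 to 97.2 RPKM (0.80, SE 0.38, limma adjusted p = 0.861). The RNA sensor gene Ifih1 was at 4.16 to 15.6 and 10.6 to 32.2 RPKM (1.11, SE 0.44, limma adjusted p = 0.86). The median of this list was 0.77 with the neutrophil covariate and 0.44 to 0.54 with any 1 library left out.

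Of 9 MHC class II genes, which present peptides to helper T cells, all had a positive difference with a median of 0.73, but 0 passed by limma. Their median was 1.95 in number-last libraries, beside 0.07 in number-first libraries with 6 of 9 higher. H2-Eb1 was at 61.9, 46.9, 13.1, 38.7 and 0 RPKM in control 1 to 5 and at 10.7 to 208 in Ezh2 loss (2.71, SE 0.91, limma adjusted p = 0.821), so that its number-last difference of 5.85 rests on the 0 of control 5. MHC class I genes had a median of 0.13, with H2-T23 at 308 to 567 and 401 to 771 RPKM (0.49, SE 0.22, limma adjusted p = 0.861). Among 19 inflammation genes 13 were higher (68.4%, beside 47.1% of all genes tested) and 0 passed by limma. The chemokine gene Ccl6 was listed at 0 in 4 of 5 controls and ran from 0 over a median of 28.1 to 106 RPKM in Ezh2 loss (4.40, SE 1.17, limma adjusted p = 0.651). Tnf was at 0 to 8.33 RPKM in control and 0 to 27.6 in Ezh2 loss (2.61, SE 0.92, limma adjusted p = 0.821). Fcer1g, the signalling chain of Fc receptors, was at 93.6 to 258 and 136 to 494 RPKM (0.97, SE 0.37, limma adjusted p = 0.846). Lgals3 passed once control 5 was left out (4.91, limma adjusted p = 0.0223), against 2.98 (SE 0.84, limma adjusted p = 0.757) with it, since control 5 (10.4 RPKM) was the only control above 0. In number-last libraries alone the difference of Lgals3 was -0.12.

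Cell cycle genes depended on which libraries were taken. All 24 tested G2 and M phase genes had a positive difference, beside 47.1% of all genes tested. Their median was 1.06, and 2 of them had no control library at 1 RPKM. None passed by limma. Without Ezh2 loss 4 the median was -0.02, with 11 higher and 13 lower, and it was 1.65 in number-first and 0.28 in number-last libraries. With the neutrophil covariate it was -0.71. Plk1, a mitotic kinase, was listed at 0 in all 5 controls and at 0 to 22.7 RPKM in Ezh2 loss (2.56, SE 0.89, limma adjusted p = 0.821). Kif11, the spindle motor, was at 0 to 0.676 and 0 to 17.1 RPKM (2.12, SE 0.88, limma adjusted p = 0.861). The S phase genes had a median of 0.03, with 14 of 27 higher. Fhl1, a gene of quiescent HSCs, was at 37.9 to 62.0 RPKM in control and 7.43 to 41.7 in Ezh2 loss (-1.08, SE 0.43, limma adjusted p = 0.861). Cdkn2d, an inhibitor of cyclin D kinases, was at 67.8 to 132 and 124 to 244 RPKM (0.53, SE 0.25, limma adjusted p = 0.861).

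The lists of growth and metabolism genes differed in direction. Of the MYC and ribosome biogenesis genes 18.2% were higher and of the glycolysis genes 25%, beside 47.1% of all genes tested. The lists as a whole were not tested. Of 22 MYC and ribosome biogenesis genes 18 were lower, with a median of -0.41, which was -0.23 in number-first and -0.51 in number-last libraries, and 0 passed by limma. Srm, the spermidine synthase gene and a MYC target, was at 128 to 326 RPKM in control and 80.3 to 211 in Ezh2 loss (-0.71, SE 0.32, limma adjusted p = 0.861). Of 20 glycolysis genes 15 were lower, with a median of -0.16. Pkm, the pyruvate kinase of the last step, was at 169 to 299 RPKM in control and 91.2 to 195 in Ezh2 loss (-0.64, SE 0.24, limma adjusted p = 0.845). The 78 nuclear oxidative phosphorylation genes split into 39 higher and 39 lower with a median of 0.00, in spite of Uqcrfs1. Ndufs1, of complex I, was at 25.6 to 53.7 and 41.2 to 69.0 RPKM (0.64, SE 0.29, limma adjusted p = 0.861). Of 80 ribosomal protein genes 50 were higher in number-first libraries by limma, so no direction by genotype is given: their median was 0.07 with the style term and -0.63 without it. Of 27 immediate early and stress genes, which rise when cells are handled, 18 were lower, with a median of -0.15. Ppp1r15a was at 267 to 666 RPKM in control and 203 to 545 in Ezh2 loss (-0.73, SE 0.28, limma adjusted p = 0.846). The TGF-beta list (13 of 19 higher, median 0.37, and -0.02 without the style term) and the BCL2 family (8 of 11 lower, median -0.38) had 0 genes passing by limma, and 1 and 0 with an unadjusted p under 0.05.

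**Figure D3:**
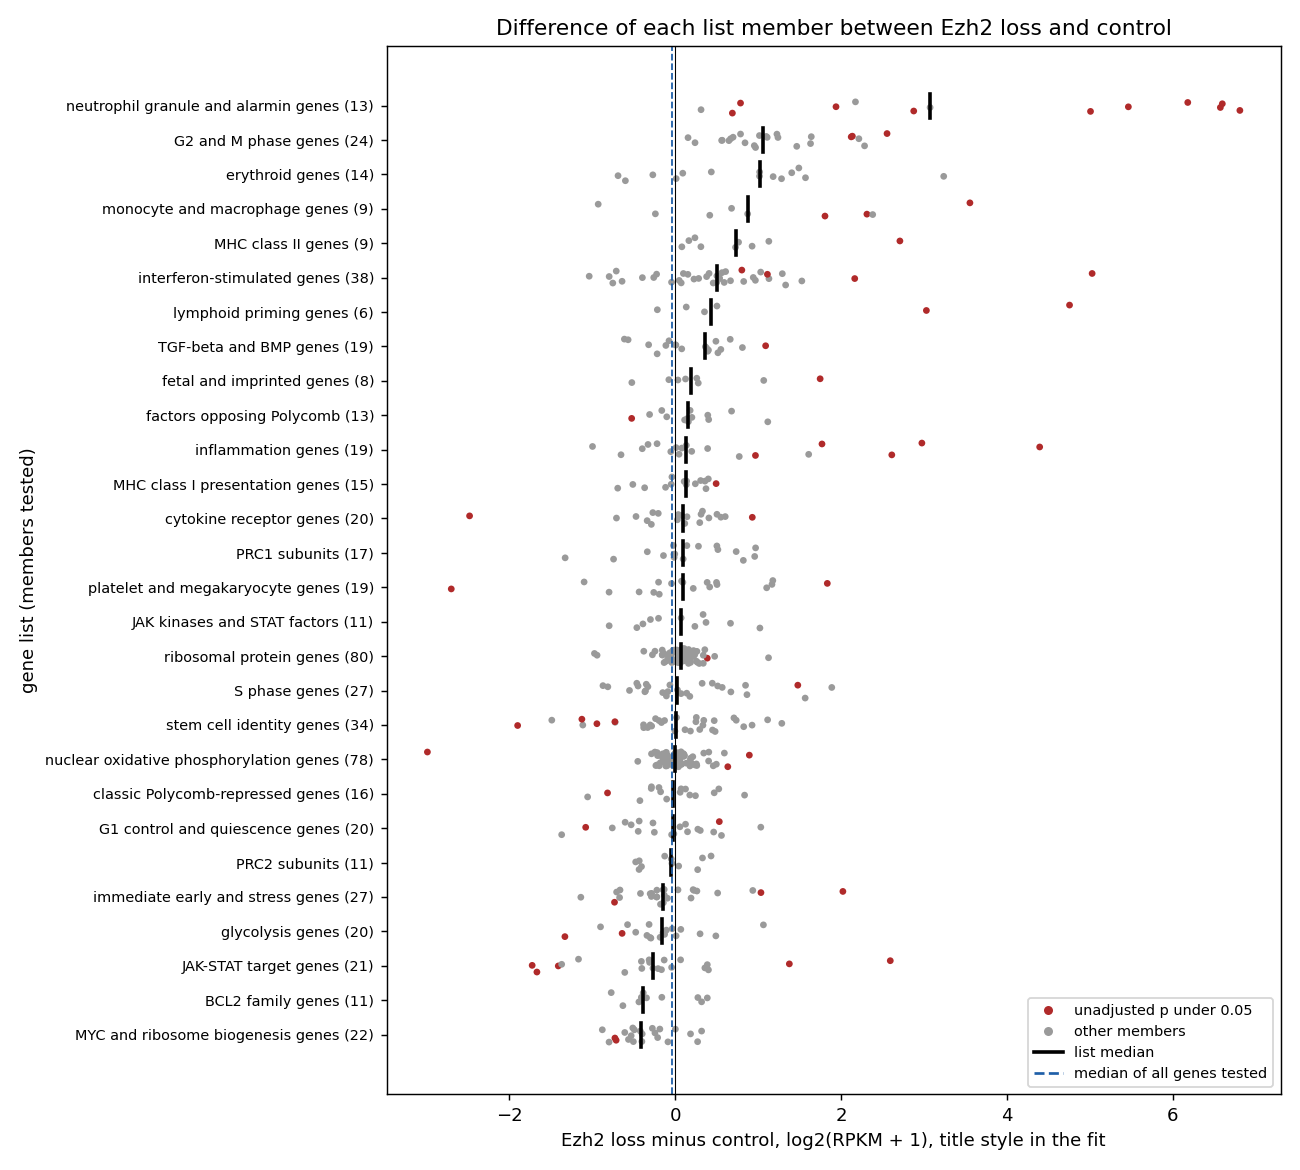
Difference of every tested member of each gene list between Ezh2 loss and control on the log2(RPKM + 1) scale, with red for an unadjusted p under 0.05, black bars for list medians and a dashed line for the median of all genes (-0.03). Neutrophil genes reach furthest to the right with a median of 3.08, while PRC2, stem cell identity and oxidative phosphorylation genes lie around 0.

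Taken by title style, 9 genes passed by limma in the number-first libraries alone (0.0827%; 704 at an unadjusted p under 0.05, 6.47%) and 0 in the number-last libraries alone (0%; 495, 4.55%). The number-last fit holds 1 control library, whose spread is assumed to be that of the others. Among the 9 were Retnlg, S100a8, Lcn2, Gstm2 and Cox4i2. Of the 21 named genes 20 had the same direction in both styles, the exception being Ezh2. The 20 were picked for their small p in the fit over both styles. That choice favours equal directions, so this count supports nothing further. The effect of Ezh2 loss differed between the styles in 7 genes (0.0643%; 579 at an unadjusted p under 0.05, 5.32%): Hist1h4d, Commd5, Hiatl1, Orai1, Tmem251, Snord69 and Pusl1. In each of them control 5, the only number-last control, was at 0 to 0.789 RPKM, so the number-last differences of 3.79 to 5.44 rest on that library. In the number-first libraries 5 of the 7 were at -0.66 to 0.73, while Snord69 was at -4.60 and Pusl1 at -3.22. Hist1h4d, a histone H4 gene copied in S phase, was at 355, 229, 262, 347 and 0.789 RPKM in control 1 to 5. It was at 435 and 547 RPKM in number-first and 33.8 to 79.6 in number-last Ezh2 loss libraries. Its difference was 0.73 in number-first and 5.18 in number-last libraries, 2.44 with style in the fit (SE 0.60, limma adjusted p = 0.598) and 0.12 without.

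**Figure D4:**
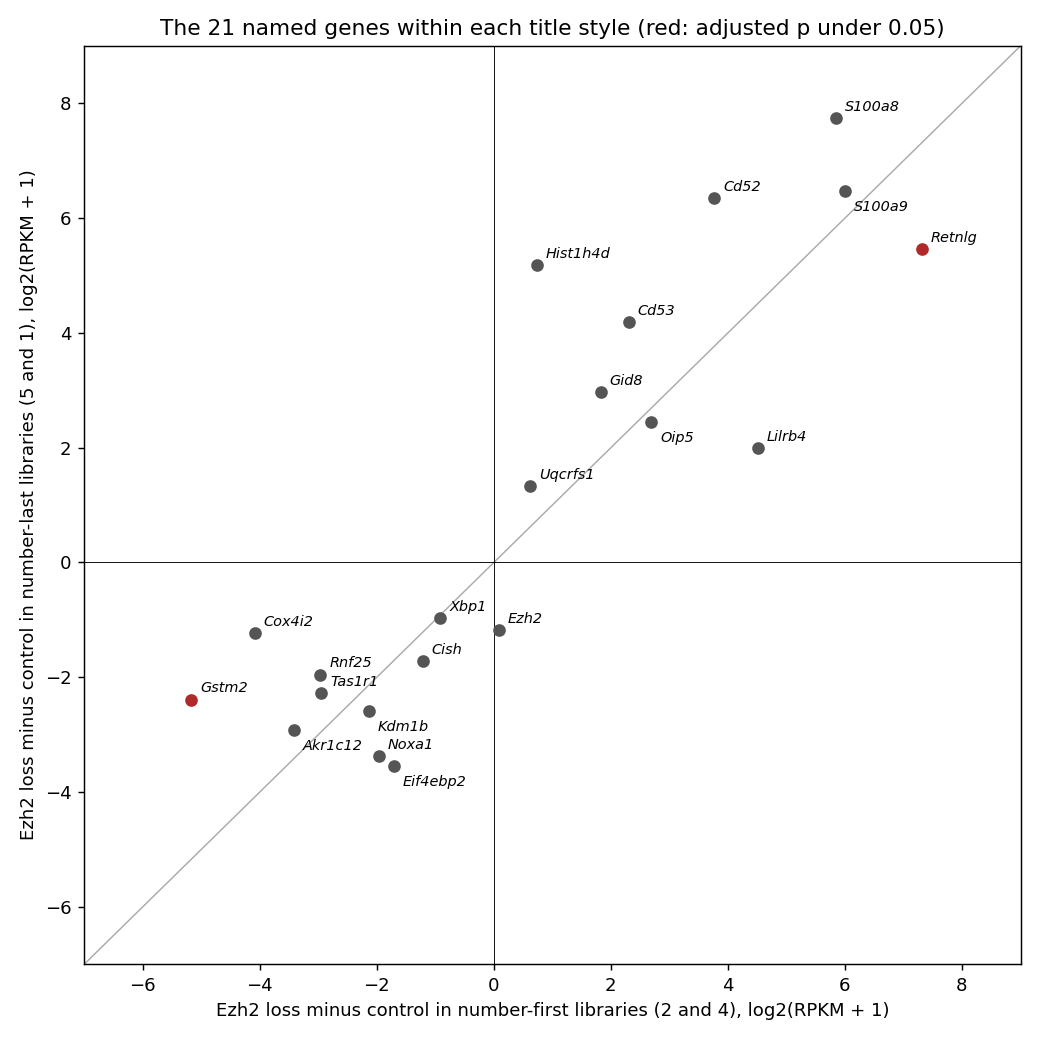
Difference between Ezh2 loss and control for the 21 named genes in number-first libraries (horizontal axis, 2 against 4) and in number-last libraries (vertical axis, 5 against 1), both on the log2(RPKM + 1) scale, with the diagonal marking equal differences and red the 2 genes that passed. All genes except Ezh2 lie in the quadrants of equal sign, which their choice by p over both styles favours. Hist1h4d lies far from the diagonal.

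The same step, loss of Ezh2, can be read on the JAK2V617F background from the double mutant against JAK2V617F libraries. None of these is in the comparison above, but the style term in this fit is shared by all 26 libraries. All 7 double mutant libraries are number-first, beside 2 of 7 JAK2V617F libraries. The effect with JAK2V617F thus leans on the shared style term, which the control and Ezh2 loss libraries help to set. With all 26 libraries and style in 1 fit, 4 genes passed by limma for the double mutant minus JAK2V617F (0.0367%). The difference between that effect and the effect without JAK2V617F passed in 0 genes (0%) by limma, with 683 at an unadjusted p under 0.05 (6.27%). Retnlg was listed at 0 in 6 JAK2V617F libraries, with 7.94 RPKM in the other, and was above 0 in 3 of 7 double mutant libraries (6.77, 81.6 and 526). Its effect was 6.68 without and 1.21 with JAK2V617F, a difference of -5.46 (SE 2.07, limma adjusted p = 0.755). S100a8 ran from 38.8 over a median of 62.6 to 8520 RPKM in JAK2V617F and from 13.1 over a median of 113 to 26800 in double mutant libraries, so in both groups a few libraries held nearly all of it (difference of effects -7.14, SE 3.10, limma adjusted p = 0.778).

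The lower genes were read on the JAK2V617F background in the same way. Gstm2 was at 0 to 92.4 RPKM (median 51.1) in JAK2V617F and at 0 to 44.7 (median 1.93) in double mutant libraries, with an effect of -0.72 beside -4.13 without JAK2V617F (difference 3.41, SE 1.48, limma adjusted p = 0.778). Noxa1 was above 0 in 3 of 7 JAK2V617F libraries and in 7 of 7 double mutant libraries, where it ran from 3.46 to 15 RPKM (difference 3.94, SE 1.06, limma adjusted p = 0.755). Cish was at 7.93 to 65.4 RPKM in JAK2V617F and 17.1 to 82.1 in double mutant libraries (difference 1.32, SE 0.69, limma adjusted p = 0.803). Uqcrfs1 was at 134 to 189 and 110 to 188 RPKM (difference -1.09, SE 0.30, limma adjusted p = 0.755). None of the 21 named genes passed, so these differences of effect are values with wide errors. A p over the threshold does not show equal effects. All of the named genes but Ezh2 were picked for a small p without JAK2V617F. The effect without JAK2V617F is subtracted in each difference, so that choice alone favours differences of the opposite sign.

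**Figure D5:**
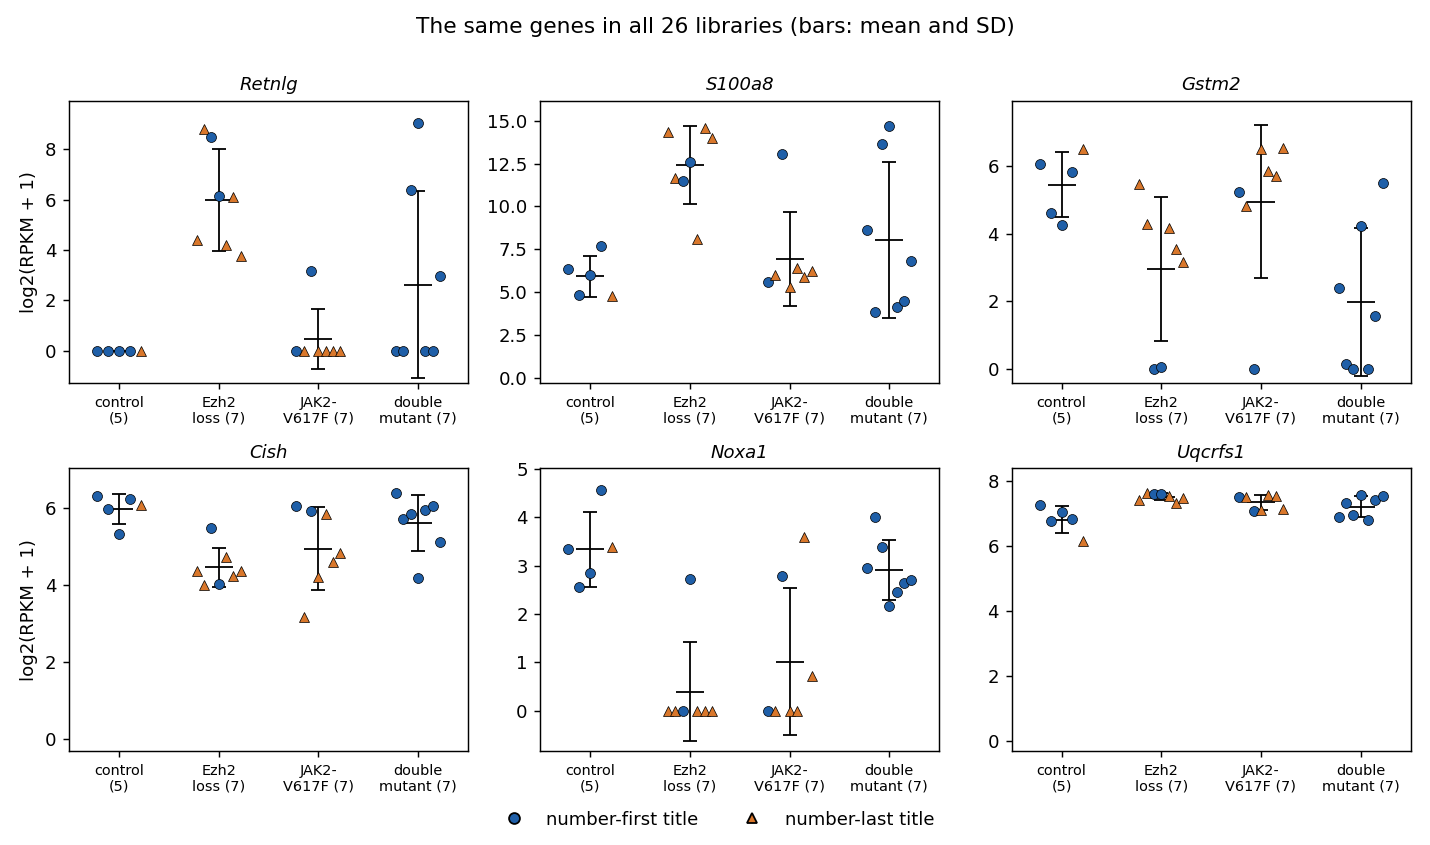
Level of 6 genes in all 26 libraries as log2(RPKM + 1), by genotype, with circles for number-first and triangles for number-last titles and bars for mean and SD. Retnlg is above 0 in all 7 Ezh2 loss, 1 JAK2V617F, 3 double mutant and 0 control libraries, and Noxa1 is present in all control and double mutant libraries but in 1 of 7 Ezh2 loss libraries.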

How the data were processed

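RNA of sorted HSCs was measured in 7 Ezh2 loss and 5 control libraries, grouped by genotype label. The authors deposited 1 table of RPKM per gene and library (0 columns unmapped). The build was mm10 (GRCm38) and the tools were Subread 1.5.0, SAMtools 0.1.19 and STAR 2.4.2a, per the submitters' processing notes. The sources used here do not give the annotation, strandedness or treatment of reads that map to several places.

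Genes with at least 1 RPKM in at least 5 of the 12 libraries were fitted on log2(RPKM + 1) with limma 3.58.1 in R 4.3.3 (eBayes with trend and robust), with group and title style as terms. Tests were two-sided, with Benjamini-Hochberg adjustment over all 10886 genes. A gene passed at adjusted p under 0.05. RPKM is not a count, so no count test was run. Read totals were estimated from the steps of low values and GENCODE M21 gene lengths. Libraries correlated at 0.736 to 0.892, and no 2 shared an equal non-zero value. Replicate numbers follow accession order and pair nothing.

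Gene lists, named genes and the style term were chosen with earlier results of these data known. Ezh2 is always named, then the 10 genes higher and the 10 lower with the smallest p and a mean of at least 5 RPKM in the higher group, and the 4 members of each list with the smallest p. Predicted genes and small RNA entries were passed over. Defining markers of other cell types were named too, and a gene outside these rules is marked in the text as picked after seeing its values. List medians and counts carry no test. Some genes of the lists are not reported here and were left out of list counts and marker sums.

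The fit was tested on simulated data for this comparison, with 200 of 10886 genes changed in each of 5 runs. It recovered 94.7% of genes changed by 4 on the log2 scale, 42.2% of those changed by 2 and 9.03% of those changed by 1, and 5.05% of its calls were false. Alternatives covered the style term, each style alone, pseudocounts of 0.1 and 5, the low-value filter, scaling, libraries in the fit, array weights, the variance model, a neutrophil covariate and leaving out each library. A covariate for Y-linked transcripts was chosen after seeing the data.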

Additional observations from a re-analysis of the deposited data

Results flagged for a closer look

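Dixon's test looked for a library far from the others in 42 groups of 5 or 7 libraries, both groups of each of the 21 named genes. It flagged 8 groups, beside about 1 in 20 by chance where values are normally distributed. Groups at 0 throughout (control for Retnlg and Ezh2 loss for Tas1r1) could not be flagged. Where all but 1 library of a group were at 0, that library was flagged however low its value. Lilrb4 was at 0.405 RPKM in control 5, the only control above 0. S100a9 was at 79.9 RPKM in Ezh2 loss 5, against 1030 in the next lowest Ezh2 loss library. Hist1h4d was at 0.789 RPKM in control 5, against 229 in the next lowest control, and Rnf25 was at 78.9 in control 5, against 22 in the next highest. Akr1c12 was at 2.81 RPKM in control 3 and at 11.8 in Ezh2 loss 6. Noxa1 was at 5.55 RPKM in Ezh2 loss 4 and 0 in the other 6 Ezh2 loss libraries. Eif4ebp2 was at 4.60 RPKM in Ezh2 loss 3, against 0.0899 in the next highest. Control 5, the only number-last control, accounted for 3 of these.

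Among the named genes, the effect of Ezh2 loss on Hist1h4d differed between title styles, at -4.45 on the log2(RPKM + 1) scale for number-first minus number-last (SE 0.57, limma adjusted p = 0.00448). This value rests on control 5 as the only number-last control.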

How the results depend on the processing

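No paired analysis was possible because replicate numbers follow accession order and the labels pair no libraries across groups. Over 71 named genes and 27 alternatives, 1847 of 1905 values kept their direction and side of the threshold, 26 lost a call, 10 gained one and 22 reversed. Only Retnlg and Gstm2 had a call to lose, so all 26 lost calls were theirs. For the other genes, staying over the threshold says little. Counting the main fit, Retnlg passed in 19 settings and Gstm2 in 11. The count of 2 passing genes was 2 without the style term (Retnlg and Tas1r1), with median-ratio, quantile or TPM scaling, a filter of 5 RPKM, array weights or the Y-linked covariate. It was 9 in number-first libraries, 0 in number-last libraries, 1 with a pseudocount of 0.1, and 0 with a pseudocount of 5, no low-value filter, all 26 libraries, eBayes without trend and robust, or the neutrophil covariate. Leaving out 1 library gave 0 to 7 genes: 0 without control 3 or Ezh2 loss 4, 5 without control 5, and 7 without Ezh2 loss 5. The count of genes whose effect differed by style was 7, and 55 with a pseudocount of 0.1, 0 with a pseudocount of 5 and 18 with no low-value filter. The cause of these shifts was not tested. Without the style term the median of all genes moved from -0.03 to -0.12.

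Values that reversed were small or of PRC2 and marker genes. Without the style term Ezh1 was at -0.53. In number-first libraries Ezh2 was at 0.0804, Jarid2 at -0.0358, Ezh1 at -0.37 and Eed at 0.65. In number-last libraries Lgals3 was at -0.12 and Suz12 at -0.63. With the neutrophil covariate Jarid2 was at -0.48, Lcn2 at -0.67, Ly6c2 at -2.03, Tcf15 at 1.29, Ezh1 at -0.34, Eed at 0.35 and Suz12 at -0.39. Lcn2 is itself part of that covariate, so its value there is no separate check. When 1 library was left out, Suz12 ran from -0.571 to 0.466 and reversed in 4 fits. Ezh2 (-0.774 to 0.0804), Jarid2 (-0.0358 to 0.783), Eed (-0.451 to 0.646) and Ezh1 (-0.368 to 0.653) reversed in 1, that without control 5. With 7 and 5 libraries, a depth of at least 7.8 in units of 1e6 reads and single libraries at 0, differences of 1 on the log2 scale were mostly out of reach.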
